A study of Mus musculus with 435 samples.

Results

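The 8 genes described here, Wnt4, Rspo1, Fst, Irx3, Irx5, Runx1, Foxl2 and Msx1, are known from the supporting cells of the developing ovary and were followed through single cells of the XY mouse gonad. They were chosen by name, with earlier results of these data known, and all 8 were among the 16459 genes of the deposited values. In the bipotential gonad a supporting cell precursor can become a Sertoli cell or a granulosa cell. On the ovarian side the secreted factor Wnt4 and the R-spondin Rspo1 act through beta-catenin, Fst blocks activin, and the transcription factor Foxl2 maintains granulosa cells. On the testicular side Sry switches on Sox9, and Sox9 with Nr5a1 switches on Amh, the hormone that removes the Müllerian ducts and marks the differentiated fetal Sertoli cell.

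All cells came from XY mice of a mixed background carrying NR5A1-eGFP, a green reporter for the gonadal somatic factor Nr5a1. Living cells positive for the reporter were sorted, so what was sampled are reporter-positive somatic cells and not the whole gonad. RNA was sequenced cell by cell from 9 chip captures, 1 at the embryonic day labelled E10.5 and 2 each for E11.5 through E13.5, day by day, and for E16.5. Whether a capture pooled several embryos is not given in the sources used here, so tests measure the spread between captures. Below, early means the 3 captures of E10.5 and E11.5, and late means the 6 captures from E12.5 to E16.5. After filtering 396 cells remained, 152 early and 244 late, with 30 to 59 in a capture.

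The value per cell is RPKM, reads scaled to transcript length and library depth, and a gene was called found in a cell at 1 RPKM or more. The median cell had 5638 genes above 0 and an implied depth of 3.63 M reads, with captures at 7.83 to 8.10 M for the stages labelled 25 M reads (E10.5 and E13.5) and 2.20 to 3.24 M for the others. At 1 RPKM, Wnt4 had about 15.2 implied reads in the median cell and 4.52 in the shallowest. The reporter was found in 93.4% of cells and Nr5a1 in 78%. Sox9 was found in 39% to 91.9% of the cells of a capture. Its lowest share was in the second E11.5 capture, against 75% in the first. At E10.5 Sox9 was found in 48 of 59 cells (81.4%) and Sry in none of the 59. Sox9 at 1 RPKM is thus not read as a mark of Sertoli fate in early cells. Amh was found in none of the 152 early cells, in 16.7% and 27% of the cells of the E12.5 captures, 32.1% and 14.3% of the E13.5 pair and 61.3% and 47.1% of the E16.5 pair.

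The genes lie on 6 chromosomes of GRCm38 (GENCODE M21). Wnt4 spans chr4:137277489-137299726 on the plus strand, and Rspo1 lies on the same strand at chr4:124986430-125009099. Fst is at chr13:114452290-114458951 on the minus strand. The Iroquois genes Irx3 (chr8:91798525-91802067, minus) and Irx5 (chr8:92357625-92376286, plus) are neighbours. Runx1 covers chr16:92601466-92826149 on the minus strand, Foxl2 chr9:98955288-98958543 on the plus strand, and Msx1 chr5:37820485-37824583 on the minus strand. Rspo1, Fst, Irx3, Runx1 and Foxl2 each overlap another annotated gene, and whether reads were counted by strand is not stated in those sources that were used.

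The 250 bases before the start are shown for 3 of the genes, Msx1, Runx1 and Rspo1. Among early cells Runx1 and Msx1 shared 8 cells, Rspo1 and Runx1 shared 4, and Rspo1 and Msx1 shared 3. RefSeq promoters on GRCm38.p6 matched 6 of the 8 genes. The Runx1 window lies before its proximal start and inside the gene's span. Capitals mark matches to the motifs searched on both strands.
Msx1, chr5:37824586-37824835, minus strand: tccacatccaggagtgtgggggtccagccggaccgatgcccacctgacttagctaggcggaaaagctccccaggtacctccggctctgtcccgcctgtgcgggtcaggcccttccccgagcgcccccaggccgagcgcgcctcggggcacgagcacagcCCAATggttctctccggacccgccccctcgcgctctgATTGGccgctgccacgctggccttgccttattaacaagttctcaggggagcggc
Runx1, chr16:92697330-92697579, minus strand: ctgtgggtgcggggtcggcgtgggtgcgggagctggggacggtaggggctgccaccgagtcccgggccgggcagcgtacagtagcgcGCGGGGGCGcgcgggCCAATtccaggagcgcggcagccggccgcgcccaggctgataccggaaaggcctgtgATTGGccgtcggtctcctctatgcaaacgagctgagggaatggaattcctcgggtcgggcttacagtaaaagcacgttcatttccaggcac
Rspo1, chr4:124986180-124986429, plus strand: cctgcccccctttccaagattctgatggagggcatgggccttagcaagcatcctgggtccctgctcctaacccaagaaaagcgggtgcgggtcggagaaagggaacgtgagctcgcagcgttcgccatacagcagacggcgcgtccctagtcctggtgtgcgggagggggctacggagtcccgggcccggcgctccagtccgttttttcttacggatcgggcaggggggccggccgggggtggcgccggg

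The motif CCAAT occurred 2 times in the Msx1 window and 2 times in the Runx1 window, and not in the Rspo1 window. It occurs in 33.9% of all 32851 promoter windows of that length. GCGNGGGCG, an EGR and WT1 motif, occurred 1 time before Runx1 and occurs in 4.70% of all windows. The TCF/LEF letters CTTTGA (13.8% of all windows), the SOX letters ACAAT (27.7%), the NR5A1 letters AAGGTCA (4.08%) and the RUNX letters TGTGGT (14%) had no match in these 3 windows. No motif of the search is contained in another. These are matches of letters only.

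Of the 8 genes, 6 were found in at least 1 cell. Wnt4 was found in 99 of the 396 cells, Rspo1 in 55, Runx1 in 41, Msx1 in 21, Fst in 13 and Irx3 in 3. Foxl2 and Irx5 reached 1 RPKM in no cell. A gene took part in the tests across captures if its mean was at least 1 RPKM in at least 2 captures, which 5 of the 8 genes passed.

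**Figure D1:**
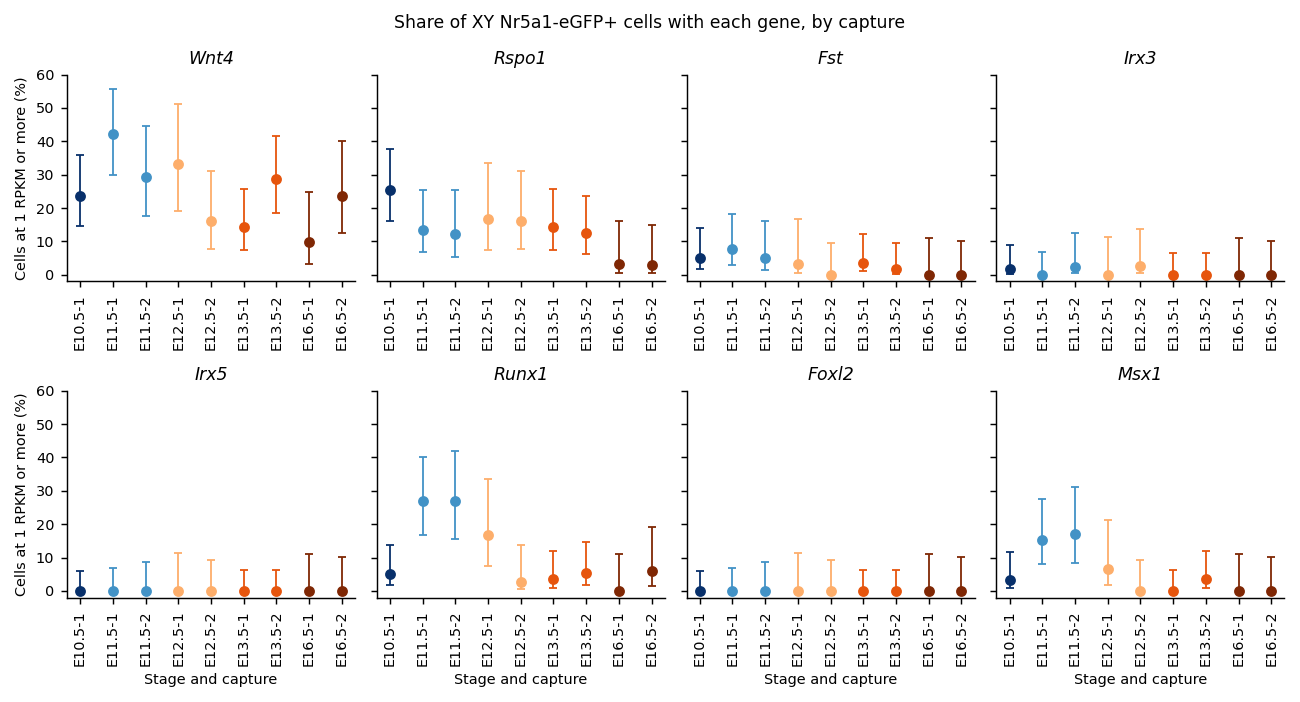
Share of cells at 1 RPKM or more for each of the 8 genes (y axis, percent) in each of the 9 captures (x axis, stage and capture number); points are captures, bars are 95% Wilson intervals and colours are stages. Runx1 and Msx1 peaked in both E11.5 captures (26.9% and 26.8%, and 15.4% and 17.1%), Rspo1 stayed at 12.2% or more until E13.5, Wnt4 was found in every capture, and Irx5 and Foxl2 were at 0 throughout.

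Wnt4, the secreted ligand whose loss lets testis-like vessels and steroidogenic cells form in the XX gonad, was the most widely found of the 8 and was not lost. The E10.5 capture had it in 14 of 59 cells (23.7%). Later counts were 22 of 52 and 12 of 41 at E11.5 (42.3% and 29.3%), 10 of 30 and 6 of 37 at E12.5 (33.3% and 16.2%), 8 of 56 and 16 of 56 at E13.5 (14.3% and 28.6%) and 3 of 31 and 8 of 34 at E16.5 (9.68% and 23.5%). Early and late captures overlapped, and the first E12.5 capture was above the E10.5 capture while the second was below it. The share was 31.8% ± 9.54 (SD, n = 3 captures) early and 20.9% ± 9.08 (SD, n = 6) late, an exact two-sided permutation p of 0.131 over the 84 splits of the captures. Mean Wnt4 was 4.81 RPKM in the E10.5 capture. The E11.5 pair had 10.1 and 11, the E12.5 pair 7.50 and 1.37, the E13.5 pair 3.61 and 8.18 and the E16.5 pair 4.24 and 0.919. The late mean was lower by a log2 difference of -1.02 ± 0.55 (SE; limma adjusted p = 0.553). Single late cells still reached early levels: the highest Wnt4 of all, 213 RPKM, was in an E13.5 cell in which Sox9 and Amh were listed at 0. In the cells that had Wnt4, its median level was 10.4 RPKM at E10.5, 20.6 at E11.5, 13.7 at E12.5, 8.10 at E13.5 and 2.82 at E16.5. The E16.5 captures had medians of 27.3 (3 cells) and 2.31 RPKM (8 cells). Cells at 5 RPKM or more were 21 of 93 at E11.5 and 3 of 65 at E16.5.

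Rspo1, the secreted amplifier of Wnt signalling whose loss causes female-to-male sex reversal, was kept until E13.5 and nearly absent at E16.5. The E10.5 capture had it in 15 of 59 cells (25.4%). Later counts were 7 of 52 and 5 of 41 at E11.5, 5 of 30 and 6 of 37 at E12.5, 8 of 56 and 7 of 56 at E13.5, and 1 of 31 and 1 of 34 at E16.5. The E16.5 captures (3.23% and 2.94%) lay below all 7 earlier ones (12.2% to 25.4%). Mean Rspo1 was 5.79 RPKM in the E10.5 capture. The E11.5 pair had 9.26 and 4.65, the E12.5 pair 12.9 and 8, the E13.5 pair 4.07 and 3.57 and the E16.5 pair 0.181 and 0.0639. Against E12.5, the E16.5 level differed by -3.32 ± 0.63 on the log2 scale (SE; limma p = 0.000199, adjusted p = 0.0545), and against E11.5 by -2.76 ± 0.63 (adjusted p = 0.0539). Both adjusted values missed the threshold of 0.05, and both passed it with a pseudocount of 0.1 (adjusted p = 0.0232 and 0.0212). All early against all late captures gave -0.90 ± 0.74 (limma adjusted p = 0.748), since the E12.5 captures had the highest and the third highest means.

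Upk3b, a uroplakin of mesothelium and coelomic epithelium, moved with Rspo1. It was found in 30 early and 30 late cells, and in none of the 65 cells at E16.5, which allows a share of up to 4.62%. Among cells without Upk3b, mean Rspo1 was 0.264 and 2.42 RPKM for the E12.5 pair, 3.96 and 1.18 for the E13.5 pair, and 0.181 and 0.0639 for the E16.5 pair. So the highest E12.5 mean rested on Upk3b-positive cells, and without them the first E12.5 capture was close to the E16.5 captures while the other 3 stayed above them. In the cells that had Rspo1, its median level was 30.3 RPKM at E12.5 (11 cells), 11.1 at E13.5 (15 cells) and 3.71 at E16.5 (2 cells).

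Fst, which binds and inactivates activin, was rare at every stage, and its share was lower in the late captures. The E10.5 capture had it in 3 of 59 cells. Later counts were 4 of 52 and 2 of 41 at E11.5, 1 of 30 and 0 of 37 at E12.5, 2 of 56 and 1 of 56 at E13.5, and 0 of 31 and 0 of 34 at E16.5. The 0 counts allow shares of up to 8.11% in the second E12.5 capture and up to 9.68% and 8.82% at E16.5. The 3 early captures (4.88% to 7.69%) did not overlap the 6 late ones (0% to 3.57%), with an exact two-sided permutation p of 0.0119, the smallest that 84 splits can give, and an adjusted p of 0.404 over 12313 genes. Of all genes tested, 3.27% were lower late without overlap. The level differed by -1.03 ± 0.48 (SE, log2; limma adjusted p = 0.462). These counts rest on 9 early and 4 late cells.

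Runx1, a transcription factor of the early supporting lineage that is later kept in fetal granulosa cells, had its highest shares at E11.5. The E10.5 capture had it in 3 of 59 cells (5.08%). Later counts were 14 of 52 and 11 of 41 at E11.5 (26.9% and 26.8%), 5 of 30 and 1 of 37 at E12.5 (16.7% and 2.70%), 2 of 56 and 3 of 56 at E13.5, and 0 of 31 and 2 of 34 at E16.5. Mean Runx1 was 0.564 RPKM in the E10.5 capture. The E11.5 pair had 6.09 and 4.97, the E12.5 pair 1.09 and 0.310, the E13.5 pair 0.117 and 1.16 and the E16.5 pair 0.00112 and 0.468. Both E11.5 means were above every other capture. Early against late, the share was 19.6% ± 12.6 (SD, n = 3 captures) and 5.70% ± 5.77 (SD, n = 6), with an exact two-sided permutation p of 0.0476 and an adjusted p of 0.484. The unadjusted value stayed under 0.05 in 3 of 12 alternative settings. The E10.5 capture lay within the late range. The level differed by -1.98 ± 0.65 between E12.5 and E11.5 (SE, log2; limma adjusted p = 0.491) and by -2.42 ± 0.65 between E16.5 and E11.5 (adjusted p = 0.101), and the latter passed when log2 values were averaged over cells (adjusted p = 0.00219).

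Msx1, a homeobox factor that responds to BMP signals, followed nearly the same course. The E10.5 capture had it in 2 of 59 cells. Later counts were 8 of 52 and 7 of 41 at E11.5 (15.4% and 17.1%), 2 of 30 and 0 of 37 at E12.5, 0 of 56 and 2 of 56 at E13.5, and 0 of 31 and 0 of 34 at E16.5. The share was 11.9% ± 7.46 (SD, n = 3 captures) early and 1.71% ± 2.82 (SD, n = 6) late, with an exact two-sided permutation p of 0.0357 and an adjusted p of 0.454. The unadjusted value stayed under 0.05 in 6 of 12 alternative settings. Of all genes tested, 6.55% were lower late at an unadjusted exact p under 0.05, and 3 of the 5 tested genes of the list were. Mean Msx1 did not follow its share, since 2 cells of the first E12.5 capture had 359 and 345 RPKM. They set that capture's mean to 23.5 RPKM against at most 3.74 elsewhere. Both of these cells had Pax8, a factor of the mesonephric tubules, at 1 RPKM or more, and so did 3 of the 4 late cells with Msx1.

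Both the early and the late captures mix the 2 labelled depths, and each difference in share was also taken within a labelled depth. In the 10 M captures (2 early, 4 late) the late share minus the early share was -15.1 percentage points for Wnt4, -3.07 for Rspo1, -5.45 for Fst, -20.6 for Runx1 and -14.6 for Msx1. In the 25 M captures, 1 of E10.5 and 2 of E13.5, it was -2.30, -12.0, -2.41, -0.62 and -1.60 in the same order. The Runx1 and Msx1 differences were thus between E11.5 and later stages and were not seen between E10.5 and E13.5. E10.5 and E11.5 differ in labelled depth, so stage and depth cannot be told apart in the rise of these genes between them. No permutation test was run within a labelled depth.

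No gene of the list passed limma in any comparison of stages, where 0.577% of the 12313 genes tested passed early against late, 0.357% E16.5 against E12.5, 1.52% E16.5 against E11.5 and 1.06% E13.5 against E10.5. For E12.5 against E11.5 limma called 0% (0 of 12313 genes), while 961 had p below 0.05 before adjustment and up to 5 were called under another setting. All 5 tested genes of the list had negative early to late differences, with a median of -1.02, beside a median of -0.01 and 50.6% negative over all genes.

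Irx3, Irx5 and Foxl2 were close to silent. Irx3 reached 19.6 RPKM in 1 cell of E10.5, 2.49 in 1 cell of E11.5 and 1.002 in 1 cell of E12.5, and was found in no cell of E13.5 or E16.5. Irx5 was above 0 in 1 cell, at 0.211 RPKM in E10.5. Foxl2 was above 0 in 2 cells, both of the second E13.5 capture, at 0.4657 and 0.0502 RPKM, the latter from about 1.29 implied reads. The first of these cells had Upk3b at 74 RPKM and Sox9 at 0.0315. For Foxl2 and Irx5, 0 of 396 cells at 1 RPKM or more allows a share of up to 0.758%.

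**Figure D2:**
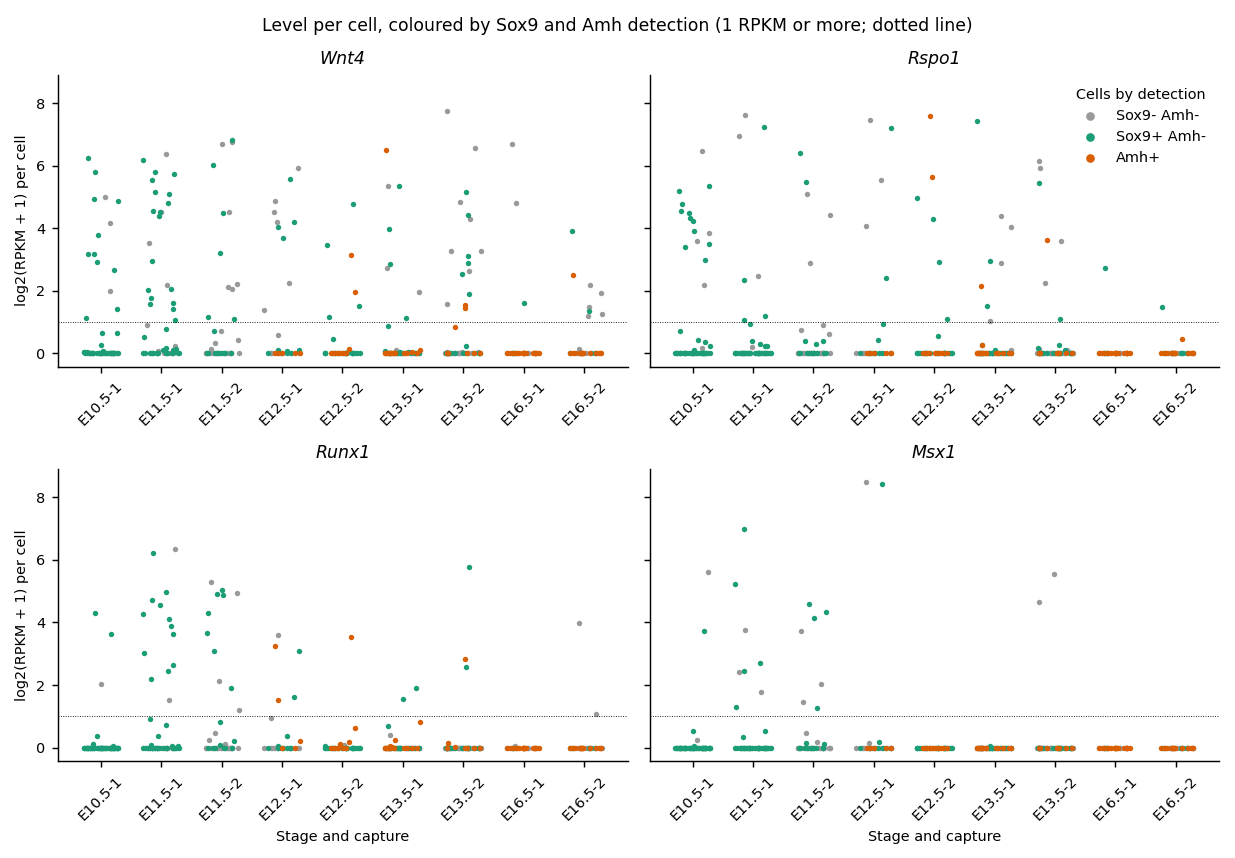
Level of Wnt4, Rspo1, Runx1 and Msx1 in each of the 396 cells (y axis, log2(RPKM + 1)) by capture (x axis); orange cells had Amh, green cells Sox9 without Amh and grey cells neither, and the dotted line is 1 RPKM. Most cells lie at 0, cells with Amh are seldom above the line, and the 2 Msx1 cells near the top of the first E12.5 capture are at 359 and 345 RPKM.

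The relation of these genes to Sox9 differed between the early captures. At least 1 of the 8 genes was found in 39.6% of cells with Sox9 and 63.6% without it at E10.5, in 61.5% and 69.2% in the first E11.5 capture, and in 81.3% and 48% in the second. Runx1 was found in 12 of 39 cells with Sox9 and 2 of 13 without it in the first E11.5 capture, and in 7 of 16 and 4 of 25 in the second. Of the 103 early cells with Sox9, 48 were of E10.5. Pooled over early cells at least 1 of the 8 genes was found in 56 of 103 with Sox9 (54.4%) and in 28 of 49 without it (57.1%). Wnt4 was found in 35 of 103 and 13 of 49 of them, Rspo1 in 17 and 10, Runx1 in 21 and 7, Msx1 in 10 and 7, and Fst in 7 and 2. Among late cells the shares with any of the genes were 46 of 160 with Sox9 (28.8%) and 38 of 84 without it (45.2%). The within-capture level difference of Wnt4 between cells with and without Sox9 was 0.19 ± 0.81 early and -1.20 ± 0.63 late (SE, log2). The late value minus the early one was -1.39 ± 1.02 (limma adjusted p = 0.896), so a change of this relation was not shown. Over all 8 captures with at least 5 cells of each kind the Wnt4 difference was -0.68 ± 0.51 (limma adjusted p = 0.655). None of the 5 tested genes of the list was called by Sox9 class, where 0.691% of 12726 genes were. For the late minus early comparison limma called 0%, while 743 genes had p below 0.05 before adjustment and up to 2 were called when a capture was left out.

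Cells with and without Amh differed in these genes by stage, and no single gene passed the test. At E12.5 at least 1 of the 8 genes was found in 6 of 15 cells with Amh (40%) and in 22 of 52 without it (42.3%). At E13.5 the counts were 5 of 26 (19.2%) and 36 of 86 (41.9%), and at E16.5 they were 1 of 35 (2.86%) and 14 of 30 (46.7%). The second E12.5 capture was higher with Amh, at 4 of 10 against 9 of 27. Pooled over late stages the counts were 12 of 76 (15.8%) and 72 of 168 (42.9%), with 35 of the 76 cells from E16.5, and the share with any of the genes was not tested. Among late cells with Sox9 the counts were 12 of 75 with Amh (16%) and 34 of 85 without it (40%), and in cells with neither they were 38 of 83 (45.8%). By capture, the shares among Sox9-positive cells with and without Amh were 40% and 45.5%, then 44.4% and 32%, at E12.5. They were 11.1% and 42.1% in the first E13.5 capture and 37.5% and 40% in the second. At E16.5 they were 0 of 19 against 2 of 4, and 1 of 16 against 3 of 6. The pooled gap thus comes from the first E13.5 capture and the E16.5 pair. That E13.5 capture was the only one on a chip labelled medium, and the part of the chip was not tested. Cells with Amh had a median of 5862 genes above 0 and 3.53 M implied reads, and late cells without it had 5500 genes and 4.55 M reads. Median Sox9 was 125 RPKM in late cells with both Sox9 and Amh and 15.6 RPKM in those with Sox9 alone.

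Wnt4 was found in 6 of 76 late cells with Amh and in 45 of 168 without it. By capture the counts with Amh were 0 of 5 and 2 of 10 at E12.5, 1 of 18 and 2 of 8 at E13.5, and 0 of 19 and 1 of 16 at E16.5. The counts without Amh were 10 of 25 and 4 of 27, 7 of 38 and 14 of 48, and 3 of 12 and 7 of 18. The share was lower with Amh in 5 of the 6 captures, the second of E12.5 being the exception. It was 9.47% ± 10.6 (SD, n = 6 captures) with Amh and 27.7% ± 10.4 (SD, n = 6) without it, an exact two-sided sign-flip permutation p of 0.0938 where 0.0312 is the smallest possible. The within-capture level difference was -1.71 ± 0.64 (SE, log2; limma p = 0.0201, adjusted p = 0.151). Within Sox9-positive cells it was -1.22 ± 0.68 over 5 captures (limma adjusted p = 0.458).

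Rspo1 was found in 4 of 76 late cells with Amh and 24 of 168 without it. Its share was lower with Amh in 4 captures, higher in 1 and equal in the other, with a level difference of -0.88 ± 0.76 (SE, log2; limma adjusted p = 0.563). Msx1 was found in 0 of 76 cells with Amh, which allows up to 3.95%, and in 4 of 168 without it. Its level difference was -1.03 ± 0.61 (limma adjusted p = 0.369). Runx1 was found in 4 of 76 and 9 of 168 (5.26% and 5.36%) with a level difference of 0.08 ± 0.40 (limma adjusted p = 0.937), and Fst in 2 of 76 and 2 of 168. Across all genes tested, 4.93% of 12158 were called by Amh class and 1.25% of 11645 within Sox9-positive cells. Of the list, 4 and 3 genes were tested in these comparisons and none was called.

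**Figure D3:**
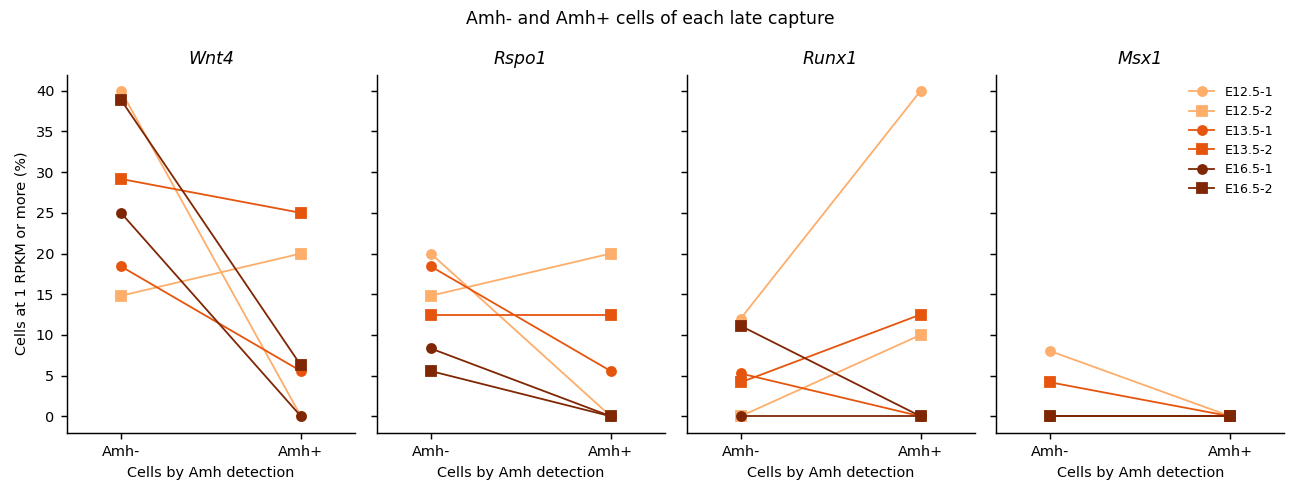
Share of cells at 1 RPKM or more (y axis, percent) among cells without and with Amh (x axis) for Wnt4, Rspo1, Runx1 and Msx1; each line joins the 2 kinds of cell of 1 late capture, coloured by stage. Wnt4 falls along 5 of the 6 lines and Msx1 is at 0 in all Amh-positive cells, while the Runx1 lines run both ways, one of them from 12% to 40% on 5 Amh-positive cells.

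The 12 cells with Amh that kept a gene of the list came from E12.5 (6 cells), E13.5 (5 cells) and E16.5 (1 cell). The most marked was a cell of the first E13.5 capture with Wnt4 at 90.3, Amh at 103 and Sox9 at 64.9 RPKM. Wnt4 was below 8 RPKM in the other 5 Amh cells that had it. In the second E12.5 capture 1 cell had Rspo1 at 190, Amh at 12.7, Sox9 at 51.8 and Upk3b at 284 RPKM. The first E12.5 capture had 2 cells with Amh and Runx1, at 1.89 and 8.58 RPKM of Runx1 and 218 and 32.6 RPKM of Amh. Whether such cells are single cells or doublets was not tested.

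**Figure D4:**
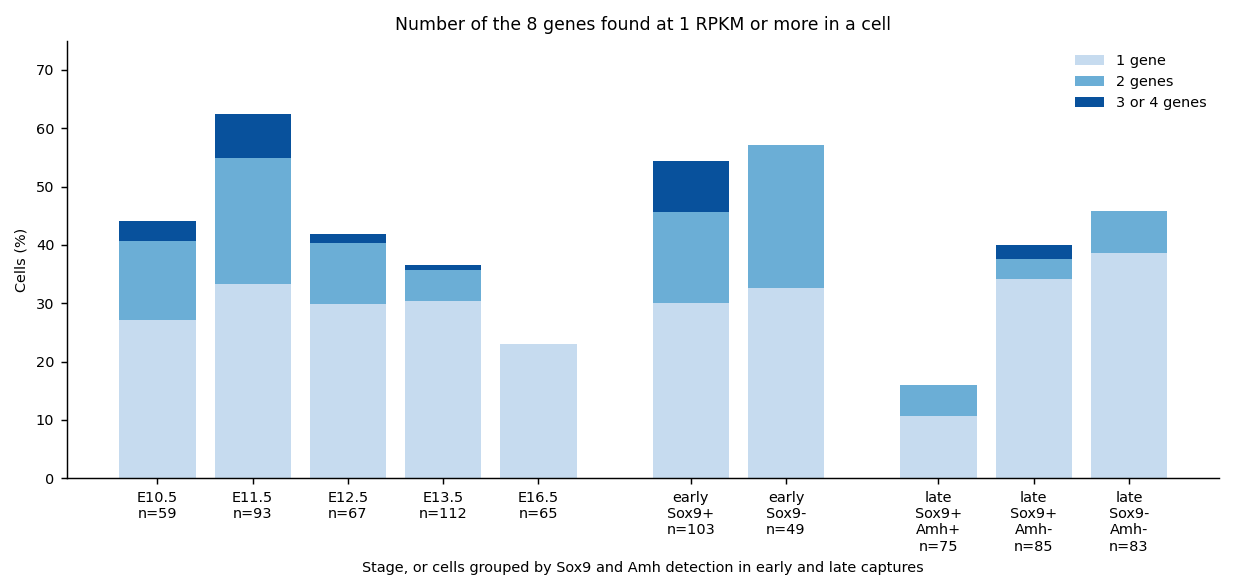
Share of cells (y axis, percent) with 1, 2, or 3 to 4 of the 8 genes at 1 RPKM or more, by stage and by Sox9 and Amh detection in early and late captures (x axis, with the number of cells). Cells with any of the genes make up 62.4% at E11.5 and 23.1% at E16.5, and 16% of late cells with both Sox9 and Amh.

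Cells with several of the genes were mostly early. The share with at least 2 was 24.3% early and 6.15% late, with none among the 65 cells at E16.5. The first E12.5 capture held 7 of the 15 late cells, and without it the late share was 8 of 214 (3.74%). At least 3 were found in 11 cells, 9 of them early, and all 11 had Wnt4 and Sox9. Among all early cells 31.6% had Wnt4, the most common of the 8, and 67.8% had Sox9. None of the 11 had Amh, but no early cell had it, so only the 2 late cells bear on this. A cell of the first E11.5 capture had 4, with Wnt4 at 45.4, Rspo1 at 4.12, Runx1 at 25.3 and Msx1 at 4.42 RPKM. Of the 9 early cells with Fst, 7 had Wnt4, against 31.6% of all early cells. None of the 4 late cells with Fst had Wnt4, against 20.9% of all late cells. Of the 17 early cells with Msx1, 8 had Runx1 (47.1%), against 18.4% of all early cells. Of the 28 early cells with Runx1, 8 had Msx1 (28.6%), against 11.2% of all early cells. These 8 cells were all at E11.5, where Runx1 was found in 26.9% of cells and Msx1 in 16.1%. None of the 13 late cells with Runx1 had Msx1. Wnt4 and Rspo1, whose products act in the same pathway, shared 17 cells, which is 17.2% of the Wnt4 cells and 30.9% of the Rspo1 cells. Over the 396 cells, with each capture's mean removed, their levels had a Pearson correlation of 0.01. Cells of a capture share their library preparation, and most values are 0.

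Rspo1 and Runx1 differed in the Upk3b cells that had them, while Wnt4 was found with both: 11 of 27 early Rspo1 cells and 11 of 28 early Runx1 cells had Wnt4. Rspo1 was found in 11 of 30 early cells with Upk3b and 16 of 122 without it (36.7% and 13.1%), and in 14 of 30 late cells with it and 14 of 214 without (46.7% and 6.54%). The share was higher with Upk3b in all 7 captures that had Upk3b cells. In those 7 it ran from 30% to 60% with Upk3b and from 5% to 22.2% without it. Of the 5 markers listed for coelomic epithelium, late cells with Rspo1 had 2.21 on average and other late cells 0.653. The average was higher with Rspo1 in 5 of the 6 late captures and in all 3 early ones. Runx1 was found in none of the 30 early cells with Upk3b and in 28 of the 122 without it. Of those 30, 14 were of E10.5, where Runx1 was rare also without Upk3b (3 of 45 cells). In the E11.5 captures the counts were 0 of 6 and 0 of 10 with Upk3b, against 14 of 46 and 11 of 31 without it.

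At E11.5 Runx1 was set beside 3 further genes. Sry, the testis-determining gene, was found in 10 early cells, all at E11.5, and 8 of these had Runx1, while 20 of the 28 early Runx1 cells had no Sry. In the first and second E11.5 captures Runx1 was found in 4 of 5 and 4 of 5 cells with Sry, and in 10 of 47 and 7 of 36 without it. Nr0b1, an orphan receptor of the early gonad, gave 5 of 8 and 8 of 13 cells with it, against 9 of 44 and 3 of 28 without it. Aldh1a2, which makes retinoic acid and marks coelomic and interstitial cells, ran the other way, with Runx1 in 3 of 23 and 0 of 17 cells with it and in 11 of 29 and 11 of 24 without it. The 9 Sertoli markers include Nr0b1, so their average is not separate from the Nr0b1 counts. Of these 9, cells with Runx1 had 2.14 and other cells 1.08 on average in the first E11.5 capture, and 2.64 and 0.933 in the second. At E10.5 the 3 cells with Runx1 had 1 and the others 1.27. The higher average was not limited to Sertoli markers. Pooled over early cells, those with Runx1 had 0.75 of the 6 markers of steroidogenic Leydig cells and the others 0.202. They had fewer of the 7 interstitial markers (2.50 against 3.64) and of the 5 coelomic markers (0.393 against 1.26). Sry, Nr0b1 and Aldh1a2 were chosen here after their values were seen, and these counts have no test.

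Wnt4 was found less often with Pdgfra than without it early, and more often late, a difference that was not tested. Early it was found in 21 of 84 cells with Pdgfra, a receptor of interstitial and mesenchymal cells, and in 27 of 68 without it. The shares with and without Pdgfra were nearly equal at E10.5 (23.5% and 24%). They were 32.3% and 57.1% in the first E11.5 capture and 15.8% and 40.9% in the second. Mean Wnt4 with and without Pdgfra was 6.26 and 2.84 RPKM at E10.5, then 4.59 and 18.3, and 11.3 and 10.7, at E11.5. Late it was found in 39 of 164 with Pdgfra and 12 of 80 without it, higher in 4 of the 5 captures that could be compared. Over all 7 interstitial markers early cells did not differ in this way, with 3.48 on average with Wnt4 and 3.40 without it. Late cells with Wnt4 had 5.43 of the 7 interstitial markers on average and other late cells 4.28, and 2.10 against 3.21 of the 9 Sertoli markers. The interstitial average was higher, and the Sertoli average lower, in 5 of the 6 late captures. Pax8 was found with Wnt4 in early cells. Among early cells 13 of 21 with Pax8 had Wnt4 (61.9%) and 35 of 131 without it (26.7%). By capture the counts were 7 of 10 and 7 of 49 at E10.5, and 3 of 4 and 9 of 37 in the second E11.5 capture. The first E11.5 capture showed no difference, with 3 of 7 (42.9%) and 19 of 45 (42.2%). Among late cells 4 of 10 with Pax8 had Wnt4, all 4 in the first E12.5 capture, and 47 of 234 without it. Late cells without Nr5a1 transcript had Wnt4 in 17 of 38 cases (44.7%), against 34 of 206 with it. Most of the 17 were in the first E12.5 capture (6 of 9 cells without Nr5a1) and the second E13.5 capture (8 of 15). In the first E13.5 capture both shares were 14.3%. Among early cells the shares were 30.6% without Nr5a1 and 32% with it. The part of these cell kinds in the stage and Amh differences of Wnt4 was not tested.

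**Figure D5:**
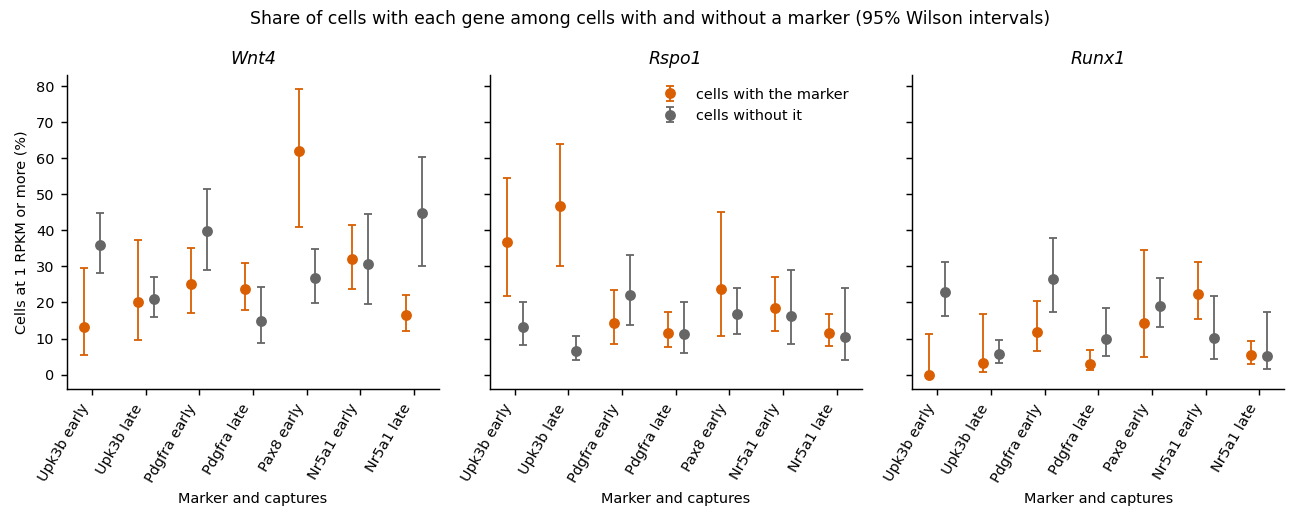
Share of cells at 1 RPKM or more of Wnt4, Rspo1 and Runx1 (y axis, percent) among cells with (orange) and without (grey) a marker gene, in early or late captures (x axis); bars are 95% Wilson intervals over pooled cells and cover counting error only. Rspo1 stands at 36.7% and 46.7% in Upk3b cells against 13.1% and 6.54% in the others, Runx1 at 0 in early Upk3b cells, and Wnt4 at 61.9% in early Pax8 cells.

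The genes most like each one over cells were named where the Pearson correlation of log2(RPKM + 1), after removing capture means, was at least 0.3 among 10954 genes and 396 cells. Wnt4 had only Col6a6, a collagen VI chain (r = 0.33). Rspo1 had Tm4sf5, a membrane protein (r = 0.35), Upk3b (r = 0.33) and Stk26, a kinase (r = 0.32). Runx1 had 20 such genes, led by the channel gene Trpc7 (r = 0.43), the repressor Bhlhe41 (r = 0.41) and Mettl24 (r = 0.40).

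Among the partners of these genes some passed the tests. Of 26 Wnt and R-spondin partners 22 were tested early against late and none passed, with a median difference of -0.30 beside -0.01 for all genes. E13.5 against E10.5 gave 1 call, Wnt5a, a ligand of the interstitium, which rose by 4.92 ± 0.48 (SE, log2; limma adjusted p = 0.000489), from 1.33 RPKM at E10.5 to 70.3 at E13.5. E10.5 has 1 capture, assumed in this test to vary like captures of the other stages. Between Amh classes 3 partners were higher and 2 lower in cells with Amh. The transcription factor Tcf7 was higher by 3.09 ± 0.54 (limma adjusted p = 0.00583), the ligand Wnt6 by 2.58 ± 0.46 (0.0068) and the R-spondin receptor Lgr5 by 2.36 ± 0.57 (0.0334). Wnt5a was lower, at -3.25 ± 0.54 (limma adjusted p = 0.00459). Within Sox9-positive cells the Wnt5a call held (-3.50 ± 0.65, limma adjusted p = 0.0188), while Tcf7 (2.67 ± 0.62, 0.0601), Wnt6 (2.18 ± 0.59, 0.107) and Lgr5 (2.09 ± 0.67, 0.177) no longer passed.

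Of the 18 follistatin and activin partners, all tested, only Inhba, the activin A subunit, passed early against late, rising by 4.40 ± 0.57 (SE, log2; limma adjusted p = 0.00616). Its stage means were 0.384 RPKM at E10.5, 0.0323 at E11.5, 8.99 at E12.5, 35.2 at E13.5 and 40.5 at E16.5. In cells with Amh, the activin B subunit Inhbb was higher by 4.20 ± 0.59 (limma adjusted p = 0.00152). Inha, which encodes the alpha subunit of inhibin, was higher by 2.38 ± 0.24 (0.00019). Inhba was lower there, at -2.38 ± 0.56 (limma adjusted p = 0.029), as was the follistatin relative Fstl1 at -1.61 ± 0.34 (0.0163). Within Sox9-positive cells Inhbb and Inha still passed (limma adjusted p = 0.0296 and 0.011), and Inhba and Fstl1 did not (0.274 and 0.123). Inha also rose from E12.5 to E16.5, from 45.5 to 547 RPKM (log2 difference 3.56 ± 0.32, limma adjusted p = 0.00124).

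Of the 10 homeobox and Runx relatives 6 were in the values and 2 were tested across stages, and none was called in any comparison. Of the 10 other ovarian supporting cell genes 7 were tested. Nr0b1 fell from E11.5 to E16.5 by 4.04 ± 0.78 on the log2 scale (limma adjusted p = 0.0256), from 24.6 to 0.367 RPKM. Nr0b1 is also among the Sertoli markers used above. Kitl, the ligand of the Kit receptor, was higher in cells with Amh by 2.24 ± 0.47 (limma adjusted p = 0.0168), a call that did not hold within Sox9-positive cells (0.089). The median of this list early against late was -0.81, and no member of it was called in that comparison.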

How the data were processed

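Values were deposited by the authors as RPKM per cell for 16459 genes in 400 of 435 labelled cells, and the unit was read from the values. Per the submitters' processing notes the builds were GRCm38.p3 and mm10; the sources used here name no aligner, counter or annotation. Per the labels' protocols, cells were sorted for the reporter and against a dead-cell dye, captured on C1 chips and amplified with SMARTer.

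Cells with fewer than 3000 genes above 0 were left out (3, all E16.5). A pair of cells of the second E12.5 capture with a correlation of 0.998 (next closest pair 0.701) was averaged, leaving 396. Implied depth (1.08 to 13.0 M reads) is the inverse of the commonest low value of RPKM times GENCODE M21 exonic length, taken as 1 read. Wilson intervals at 95% and limits of 3 cells at 0 cover counting error only.

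Cells were averaged within each capture and limma 3.58.1 was run on log2(mean + 1), with its trend and robust options and Benjamini-Hochberg adjustment over all genes with a mean of at least 1 RPKM in at least 2 captures, threshold 0.05. The lone E10.5 capture is assumed to vary like captures of other stages. Class comparisons used within-capture log2 differences between cells with and without Amh or Sox9, with at least 5 cells of each. Shares were compared by exact permutation. The scripts were tested on simulated data. Doublets were not called, and no cells were clustered.

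The 8 genes, partner lists and markers were chosen with earlier results of these data known. All 8 genes are named, with up to 4 called genes per partner list, the genes most alike (up to 3), and markers. Sry, Aldh1a2 and Nr0b1 beside Runx1, and the 2 Msx1 cells, were chosen after their values were seen. Alternatives were another pseudocount, no filter on genes or cells, mean log2 values, other thresholds, 10 M captures only and leaving out each capture.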

Additional observations from a re-analysis of the deposited data

Results flagged for a closer look

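In the 6 late captures, 13 sets of shares and means of the 8 genes were checked for a capture far from the others, and 5 had one. Late captures mix 3 stages. Chance gives about 1 in 20 such sets for values that spread evenly about a mean, a rate that does not hold for sets made mostly of 0. The first E12.5 capture stood apart in 3 of them. Its mean Msx1 was 23.47 RPKM against 1.256 in the next capture, its share of cells with Runx1 was 16.67% against 5.882%, and its mean Fst was 1.546 RPKM against 0.27. The Msx1 mean rests on 2 cells and the Fst mean on 1 cell. The second E12.5 capture had the only late cell with Irx3, a share of 2.703%, and the second E13.5 capture had the only Foxl2 above 0, a mean of 0.009213 RPKM. In both of these sets the other 5 captures were at 0, so any single value above 0 would stand apart.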

How the results depend on the processing

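Of 574 values of single genes of the list under alternative settings, 553 kept their direction. Of the 502 from limma 3 passed the threshold of 0.05: Rspo1 at E16.5 against E12.5 and E11.5 with a pseudocount of 0.1, and Runx1 at E16.5 against E11.5 with mean log2 values. Fst kept its exact p under 0.05 for the early to late share in 12 of 12 alternatives, Msx1 in 6 and Runx1 in 3. Leaving out each late capture, chosen after seeing the data, moved the late share of cells with at least 2 of the genes between 3.74% and 7.14%.

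The 21 reversals were all of differences that passed no test, and their causes were not tested. Msx1 at E12.5 against E11.5 turned to -0.85 with a pseudocount of 0.1, -0.25 with mean log2 values and -1.89 without the first E12.5 capture (range -1.89 to 2.72 when each capture was left out). Wnt4 at E16.5 against E12.5 turned to 0.42 and 0.22 without the first E12.5 or second E16.5 capture (-1.42 to 0.42), and at E13.5 against E10.5 to -0.10 with mean log2 values and -0.33 without the second E13.5 capture (-0.33 to 0.66). Without the first E13.5 capture, Runx1 and Msx1 in that contrast turned to 0.46 and 0.16 (-0.49 to 0.46 and -1.02 to 0.16). By Amh, Runx1 turned to -0.053 and -0.13 without the first or second E12.5 capture (range -0.13 to 0.28), and to -0.06 and -0.17 within Sox9 cells (-0.17 to 0.41). By Sox9, Fst turned to 0.043 without the first E12.5 capture (-0.50 to 0.043), Runx1 to -0.046 with Sox9 at 10 RPKM, and Msx1 to 0.083 and 0.044 without E10.5 or the second E13.5 capture (-0.43 to 0.083). The late minus early Sox9 difference turned to -0.27 for Rspo1 without the first E11.5 capture (-0.27 to 1.59), to 0.061 and 0.052 for Runx1 without the second E11.5 or E16.5 capture (-0.68 to 0.061), and to 0.062 for Msx1 without the second E11.5 capture (-1.73 to 0.062).

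Counts of genes called moved more. Without the filter on low values they were 4 early against late (71 as reported), 5 for E12.5 against E11.5 (0), 5 for E16.5 against E12.5 (44), 27 for E16.5 against E11.5 (187), 257 for E13.5 against E10.5 (131), 174 by Amh (599), 0 by Amh within Sox9 cells (146) and 6 by Sox9 (88). With mean log2 values they were 1, 243, 497 and 238 for these 4 contrasts of single stages in the same order, 1426 by Amh, 785 within Sox9 cells and 328 by Sox9. The 10 M captures alone gave 0 early against late, a pseudocount of 0.1 gave 86 within Sox9 cells, and Sox9 at 10 RPKM gave 143. Leaving out 1 capture gave 15 to 113 early against late, 0 to 1 for E12.5 against E11.5, 4 to 48 for E16.5 against E12.5, 46 to 197 for E16.5 against E11.5, 41 to 126 for E13.5 against E10.5, 274 to 605 by Amh, 54 to 156 within Sox9 cells, 37 to 138 by Sox9, 0 to 2 for the late minus early difference and 583 to 1036 genes with an exact p under 0.05 for the share (1212). No paired analysis was possible because capture numbers of different stages name no shared animal, batch or day, and E10.5 has 1 capture. Depth limits single cells: 1 RPKM is about 2.09 implied reads of Rspo1 in the shallowest cell.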
